A study of Plutella xylostella with 6 samples.

Results

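Genes of fatty acid synthesis, desaturation and wax in larvae of the diamondback moth P. xylostella were taken from the deposited table by words in its gene descriptions. The words were fatty acyl-CoA reductase, elongation of very long chain, acyl-CoA Delta, desaturase, fatty acid synthase and acetyl-CoA carboxylase, with sphingolipid genes left out. They gave 89 of the 21946 rows, namely 31 reductases, 27 elongases, 17 desaturases, 8 fatty acid synthases and 6 acetyl-CoA carboxylases. Of these rows, 4 join several gene symbols, and 1 desaturase, LOC105380845, is described as cholesterol desaturase daf-36, a sterol enzyme named after a gene of C. elegans. The libraries were made from whole second-instar larvae, hatched from purchased eggs and reared on commercial forage. One group was the control (CK), with 3 libraries, and the other had been treated for 12 hr with DMNT, the (3E) form of the plant homoterpene 4,8-dimethyl-1,3,7-nonatriene, also with 3 libraries. The study's methods name a common DMNT dose for its bioassays, and the sources used here give no separate dose for the sequenced larvae and no number of larvae in a library.

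Acetyl-CoA carboxylase makes malonyl-CoA, the committed step of fatty acid synthesis, and fatty acid synthase uses it to build the saturated chain. Elongases then lengthen the chain in the endoplasmic reticulum, desaturases put in double bonds with electrons from cytochrome b5, and fatty acyl-CoA reductases turn the acyl-CoA into a fatty alcohol. In insects these chains become stored fat, membrane lipid and the waxes and hydrocarbons that waterproof the cuticle. In moths, Delta(11) desaturases and some reductases are also known for making sex pheromones. Fat body, epidermis and the oenocytes, which make cuticular hydrocarbons, are the tissues best known for these enzymes, and a whole larva holds all of them. In RNA of the whole body, fewer cells of a type and less RNA per cell cannot be told apart.

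Total counts were between 49553028 and 56381123 in the controls and between 39853422 and 54671573 in the DMNT libraries, so that a count of 0 allowed up to 0.0532 to 0.0753 CPM (counts scaled to the library total). These limits cover counting error only. The biological coefficient of variation was 29%, and p-values reflect no more than the spread among these libraries, since the sources used here do not say that they came from separate cultures. On the first 2 principal components, with 26.1% and 23.4% of the variance, the groups did not form separate clusters, and DMNT 1 and control 2 lay farthest out. Levels are given as FPKM, fragments per kilobase of exon scaled to the mapped fragments of the library. Fold changes are log2 of DMNT over control with their standard error, from edgeR's quasi-likelihood test on the counts. Calls follow the thresholds of the study, which ask for an unadjusted p under 0.05 and a log2 fold change of 1 or more in either direction. By these, 0.87% of the 17709 genes tested were called, 0.503% as lower and 0.367% as higher.

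After 12 hr of DMNT, 1 of the 73 members tested, the fatty acyl-CoA reductase LOC105395169, was called lower and none was called higher. This is to be read against the shares just given for all genes. In that fit 5 members had an unadjusted p under 0.05 with lower values and 1 with higher values, where 1.68% and 1.75% of all genes did. After Benjamini-Hochberg adjustment of edgeR's p-values over all genes, the adjusted p was 1.0 for every member and for every other gene named below, and 0.0113% of all genes passed 0.05. The fold change was below 0 in 46 of the 73 members, against 50.6% of all genes. The median log2 fold change was -0.16 over the members and -0.00 over all genes, with members between -2.24 and 0.68. All 3 DMNT libraries lay below all 3 controls in 8 members, and above them in none, where 5.29% and 3.12% of all genes did so. With CPM scaled by TMM in place of FPKM, these numbers became 5 and 1, against 4.12% and 4.25% of all genes. The count of members called lower was 6 without control 2, 6 without DMNT 2 and 2 without DMNT 3, and 2 members were called higher without control 2. Some pairs of members may share reads, as described further on, so that members are not independent of one another.

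**Figure D1:**
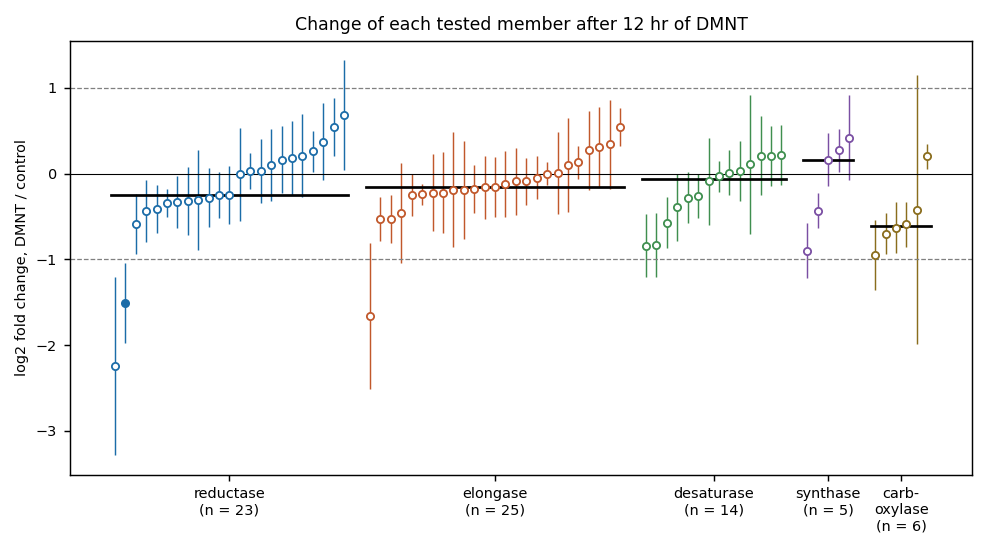
Log2 fold change (DMNT over control) of each of the 73 tested members, with 1 SE as the bar, sorted within each class. Black lines are class medians, dashed lines the threshold of 1, and the only filled point is LOC105395169 at -1.51.

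The first step, from citrate to malonyl-CoA, held 4 of the 8 members whose groups did not overlap. Of the 6 acetyl-CoA carboxylase rows, 4 had lower FPKM in every DMNT library than in every control, 3 of these had an unadjusted p under 0.05 and none reached a log2 fold change of -1. Of the genes tested, 5.29% had groups without overlap in that direction. In LOC105390367, an acetyl-CoA carboxylase 1-like gene, the controls had 2.02, 2.35 and 2.16 FPKM, and the DMNT libraries 0.42, 1.49 and 1.35 FPKM. DMNT 1 was far below the rest and the log2 fold change was -0.95 ± 0.41 (SE). It passed the thresholds of the study in 5 of 17 alternative fits, among them those without DMNT 2 (-1.23) and without DMNT 3 (-1.15), and was -0.57 without DMNT 1. The joined row LOC105383777;LOC105383778 had 2.04, 1.92 and 2.38 FPKM in the controls and 0.97, 1.39 and 1.43 FPKM after DMNT. Its log2 fold change was -0.70 ± 0.24, with DMNT 1 lowest again. A row that joins LOC105383774, LOC105383775, LOC105383760 and LOC105383776 had 3.52, 2.88 and 3.83 FPKM against 1.44, 2.62 and 2.53 FPKM. Here control 2 and DMNT 2 came close to each other, and the log2 fold change was -0.59 ± 0.26. LOC105395346 had 2.93, 2.45 and 3.43 FPKM against 1.16, 2.03 and 2.36 FPKM, with a log2 fold change of -0.63 ± 0.30. Its groups overlapped in TMM-scaled CPM. This row kept a ratio of 0.775 to 0.933 to the row of 4 symbols in all libraries, so the 2 may share reads or be pieces of 1 gene, and the 4 rows are not 4 separate observations.

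The remaining carboxylase rows stood apart from these. LOC105396601, described as acetyl-CoA carboxylase-like, had 537, 556 and 644 FPKM in the controls and 675, 586 and 682 FPKM after DMNT. It was the member with the highest FPKM, at 98.5% of the summed FPKM of its class, and its groups overlapped with a log2 fold change of 0.20 ± 0.15. Its length, from the ratio of count to FPKM, was 1.34 kb, where the row of 4 symbols had 13.5 kb and LOC105390367 had 4.28 kb. No sequence of the row was used here, so it is tied to the enzyme by its description and its database entry, which the other carboxylase rows share. LOC105397471, of 0.317 kb, had FPKM of 0, 1.02 and 1.35 in the controls and 0, 1.68 and 0 after DMNT. The whole class summed to 590.5 ± 58.5 FPKM in the controls and 654.3 ± 51.9 FPKM after DMNT (SD, n = 3), with overlap. Without LOC105396601 it summed to 11.4 ± 1.49 FPKM and 6.96 ± 2.68 FPKM, with no overlap. That row was left out with its values known, and the rest includes rows that may be pieces of 1 gene. LOC105395341, described further on, is in neither sum.

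Of 5 genes listed for the supply of acetyl-CoA and NADPH, none passed the thresholds of the study, and 2 had an unadjusted p under 0.05 with lower values. ATP-citrate synthase (LOC105380677), which splits cytosolic citrate into acetyl-CoA, had 37.9, 34.6 and 36.2 FPKM in the controls and 19.6, 30.4 and 16.9 FPKM after DMNT. The groups did not overlap, DMNT 2 was nearest the controls, and the log2 fold change was -0.66 ± 0.21. The mitochondrial tricarboxylate transport protein (LOC105380551), which brings citrate out of mitochondria, had 45.4, 38.0 and 49.8 FPKM against 26.9, 35.9 and 32.6 FPKM. Its log2 fold change was -0.44 ± 0.18. NADP-dependent malic enzyme (LOC105382451), a source of NADPH for synthesis, had 76.4, 70.5 and 74.8 FPKM against 42.6, 71.0 and 44.4 FPKM. DMNT 2 lay among the controls and the other DMNT libraries well below them, with a log2 fold change of -0.45 ± 0.20. The other 2 differed little, with log2 fold changes of -0.18 ± 0.16 for acetyl-coenzyme A synthetase (LOC105398062) and -0.01 ± 0.22 for a further malic enzyme (LOC105385124). Summed over the 5 genes, FPKM were 171 ± 11.5 in the controls and 122 ± 26.5 after DMNT (SD, n = 3), without overlap in FPKM. The closest sums were 158.3 in control 2 and 152.3 in DMNT 2, whose TMM factors were 1.07 and 1.002. Scaling by these factors would lower control 2 more than DMNT 2, so the lack of overlap is stated for FPKM alone. Overlap of the 5 genes or their sum was not checked in TMM-scaled CPM. These genes were listed by function with earlier results of the data known, and their log2 fold changes had a median of -0.44.

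Of the 5 fatty acid synthase rows tested, 2 had a fold change below 0 and 3 above it, and none was called. LOC105393722 had 19.8, 13.6 and 23.3 FPKM in the controls and 6.58, 14.1 and 9.11 FPKM after DMNT. Control 2 and DMNT 2 were alike while the other libraries were far apart, and the log2 fold change was -0.90 ± 0.32. It passed the thresholds of the study without control 2 (-1.12) and without DMNT 2 (-1.22), and was -0.67 without control 3 and -0.67 without DMNT 1. LOC105386890 had 16.1, 13.8 and 21.1 FPKM in the controls and 12.1, 13.0 and 11.8 FPKM after DMNT. The groups did not overlap in FPKM but did in TMM-scaled CPM, and the log2 fold change was -0.43 ± 0.20.

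The synthase row with the highest FPKM, LOC105386888, differed more between the libraries of a group than between the groups. It had 45.4, 110 and 31.3 FPKM in the controls and 88.2, 114 and 35.5 FPKM after DMNT. Control 2 and DMNT 2 were highest and control 3 and DMNT 3 lowest, and the log2 fold change was 0.42 ± 0.50. Without control 2 it was called higher at 1.05, and without DMNT 2 it was 0.08. LOC105384625 had 45.5, 64.9 and 40.2 FPKM against 65.2, 72.9 and 37.5 FPKM, and LOC105393935 followed a similar order of libraries with 26.7, 45.3 and 24.0 FPKM against 39.3, 43.8 and 19.8 FPKM. Their log2 fold changes were 0.27 ± 0.25 and 0.16 ± 0.31. The ratio of LOC105393935 to LOC105384625 stayed between 0.528 and 0.699, so these may share reads. The other 3 synthase rows had a mean of at most 0.273 FPKM and were not tested.

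**Figure D2:**
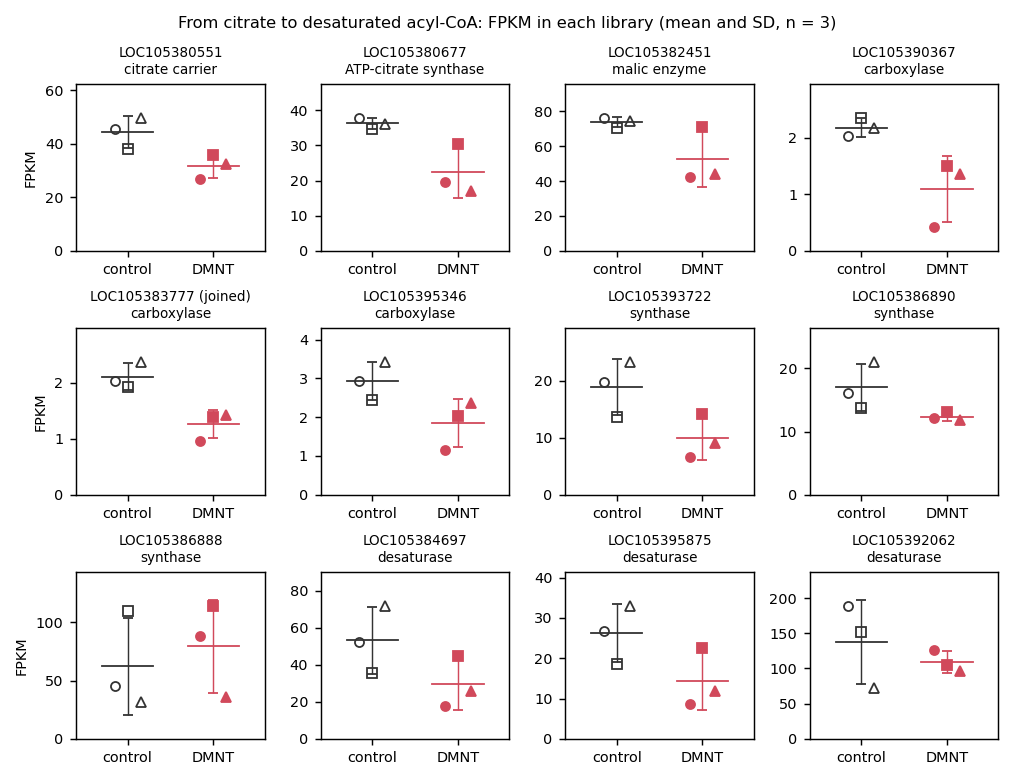
FPKM in each library (circle, square and triangle for replicates 1, 2 and 3; open for control, filled for DMNT) of genes from citrate to desaturated acyl-CoA, with the mean and SD of 3 libraries and axes from 0. ATP-citrate synthase, LOC105380551, LOC105386890 and the 3 carboxylase rows drawn show no overlap in FPKM. In the synthase LOC105393722 and the desaturase LOC105384697 the square of DMNT 2 lies above that of control 2. The genes drawn are a selection. Among those not drawn are the carboxylase LOC105396601 (log2 fold change 0.20) and the carboxylase row of 4 symbols (-0.59). The synthases LOC105384625 (0.27) and LOC105393935 (0.16) are not drawn either.

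Of the 25 elongases tested, none was called by edgeR with all libraries. LOC105382119 was called lower by DESeq2 and by edgeR without control 2. Of the 25, 18 had a fold change below 0, and the median log2 fold change was -0.16 with a range of -1.66 to 0.54. The elongase with the highest FPKM, LOC105382588, was even across the libraries, with 117, 103 and 107 FPKM in the controls and 101, 116 and 99.5 FPKM after DMNT. Its description names a mosquito gene, AAEL008004, and its log2 fold change was -0.00 ± 0.13. LOC105386866, described by the same mosquito gene, had 87.6, 117 and 42.7 FPKM against 124, 124 and 38.1 FPKM. Control 3 and DMNT 3 lay far below the other libraries, and the log2 fold change was 0.27 ± 0.46. LOC105382566 stands in the same run of neighbouring loci as LOC105382588. It had 93.2, 77.9 and 70.4 FPKM against 61.0, 47.1 and 86.7 FPKM, with a log2 fold change of -0.25 ± 0.24. DMNT 3 lay among the controls here.

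LOC105388282 is described as elongase protein 6, whose mammalian namesake lengthens the product of fatty acid synthase. It had 50.9, 50.6 and 47.1 FPKM in the controls and 40.2, 39.7 and 42.1 FPKM after DMNT. Both groups were tight and did not overlap, and the log2 fold change was -0.24 ± 0.12. LOC105382831, an elongase protein 7-like gene, was the only member with higher values and an unadjusted p under 0.05. It had 31.5, 41.8 and 24.1 FPKM in the controls and 41.9, 57.9 and 36.6 FPKM after DMNT. The groups overlapped through control 2, and the log2 fold change was 0.54 ± 0.22, between 0.35 and 0.71 with single libraries left out. Its neighbour LOC105383403 had 41.9, 32.7 and 19.1 FPKM against 23.1, 20.6 and 18.6 FPKM, with control 3 among the DMNT libraries and a log2 fold change of -0.53 ± 0.26.

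Single libraries set the widest elongase values. LOC105382119 had 2.25, 0.43 and 7.57 FPKM in the controls and 0.95, 1.46 and 0.81 FPKM after DMNT. The controls alone spanned 17.6-fold, and the log2 fold change was -1.66 ± 0.85, which ranged from -2.20 without control 2, where it was called, to -0.26 without control 3. Its value thus rested on the 7.57 FPKM of control 3. LOC105394882 had 13.9, 21.1 and 17.1 FPKM against 12.7, 21.5 and 2.65 FPKM, so that DMNT 3 alone lay below the others. Its log2 fold change of -0.46 ± 0.58 ranged from -1.12 to 0.01 when single libraries were left out.

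Of the 14 desaturases tested, none was called, none had an unadjusted p under 0.05 and none had groups without overlap. Their median log2 fold change was -0.06, and 8 lay below 0. LOC105392062, a Delta(11) desaturase-like gene with 38.7% of the summed FPKM of the class, had 189, 151 and 71.5 FPKM in the controls and 126, 104 and 95.7 FPKM after DMNT. The DMNT libraries lay between control 3 and the other controls, and the log2 fold change was -0.28 ± 0.30. LOC105384697 had 52.4, 35.8 and 72.0 FPKM against 17.8, 44.5 and 25.7 FPKM. It overlapped only because DMNT 2 exceeded control 2, and the log2 fold change was -0.84 ± 0.37. Without control 2 it was -1.09 and without DMNT 2 -1.25, both past the thresholds of the study, and without control 3 it was -0.51 and without DMNT 1 -0.58. LOC105395875 had 26.8, 18.7 and 33.1 FPKM against 8.73, 22.5 and 12.0 FPKM, the same order of libraries. Its log2 fold change was -0.83 ± 0.37, with -1.06 and -1.29 without control 2 and without DMNT 2, and -0.58 and -0.57 without control 3 and without DMNT 1. The ratio of LOC105395875 to LOC105384697 stayed between 0.459 and 0.522, so the pair may share reads and counts as 1 observation.

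Other desaturases differed by library. LOC105394761 had 51.8, 46.8 and 18.0 FPKM in the controls and 39.1, 28.1 and 18.1 FPKM after DMNT, with control 3 and DMNT 3 lowest and a log2 fold change of -0.39 ± 0.39. LOC105390382 had 18.2, 33.0 and 14.9 FPKM against 32.6, 31.7 and 9.05 FPKM, with the same libraries lowest and a log2 fold change of 0.21 ± 0.46. LOC105384925 is described as acyl-CoA desaturase-like, without a position for the double bond. It had 20.2, 3.95 and 25.7 FPKM against 3.53, 19.4 and 30.0 FPKM. Here control 2 and DMNT 1 stood far below the rest, an 8.50-fold range over the libraries that the treatment did not follow (log2 fold change 0.11 ± 0.81). LOC105395893 had 4.06, 2.80 and 4.27 FPKM against 2.03, 3.45 and 1.82 FPKM, with DMNT 2 above control 2 and a log2 fold change of -0.57 ± 0.30. The cholesterol desaturase row LOC105380845 had a mean of 0.818 FPKM and a log2 fold change of 0.22 ± 0.35.

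Of the 23 fatty acyl-CoA reductases tested, 1 was called lower, 13 had a fold change below 0 and the median was -0.25. LOC105395169, named after the Drosophila gene CG5065, had 255, 305 and 493 reads in the controls and 111, 194 and 38 reads after DMNT. In FPKM these were 2.12, 2.89 and 4.33 against 1.1, 1.66 and 0.44. The groups did not overlap, DMNT 3 was lowest, and the level after DMNT was 0.352 of that in the controls (log2 fold change -1.51 ± 0.47, adjusted p = 1.0 by edgeR's quasi-likelihood test). The gene passed the thresholds of the study in all 17 alternative fits, with the log2 fold change between -1.96 and -1.0. LOC105392595 had 1.23, 0.47 and 3.68 FPKM against 0.01, 0.72 and 0.38 FPKM. It had 1 read in DMNT 1 and 331 reads in control 3, the groups overlapped, and the log2 fold change was -2.24 ± 1.04. It was called in 3 of 17 alternative fits, which were edgeR's exact test (-2.25) and the fits without control 2 (-2.71) and without DMNT 2 (-3.18). Without control 3 it was -1.1 and without DMNT 1 it was -1.68, and it was not called in either fit.

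None of the 4 reductases with the highest FPKM was called. LOC105380500, also named after CG5065, had 137, 112 and 113 FPKM in the controls and 80.2, 91.6 and 105 FPKM after DMNT. The groups did not overlap in FPKM but did in TMM-scaled CPM, and the log2 fold change was -0.34 ± 0.16. LOC105391748, a fatty acyl-CoA reductase 1-like gene, had 56.5, 76.8 and 49.9 FPKM against 82.6, 83.6 and 45.4 FPKM, with a log2 fold change of 0.26 ± 0.24. LOC105392472 had 28.3, 34.0 and 13.3 FPKM against 28.7, 36.7 and 12.2 FPKM, and a log2 fold change of 0.10 ± 0.42. In both, DMNT 3 and control 3 were the lowest libraries. LOC105387867 had 16.2, 24.9 and 8.62 FPKM against 21.2, 22.2 and 9.85 FPKM, with the same lowest libraries and a log2 fold change of 0.16 ± 0.39.

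**Figure D3:**
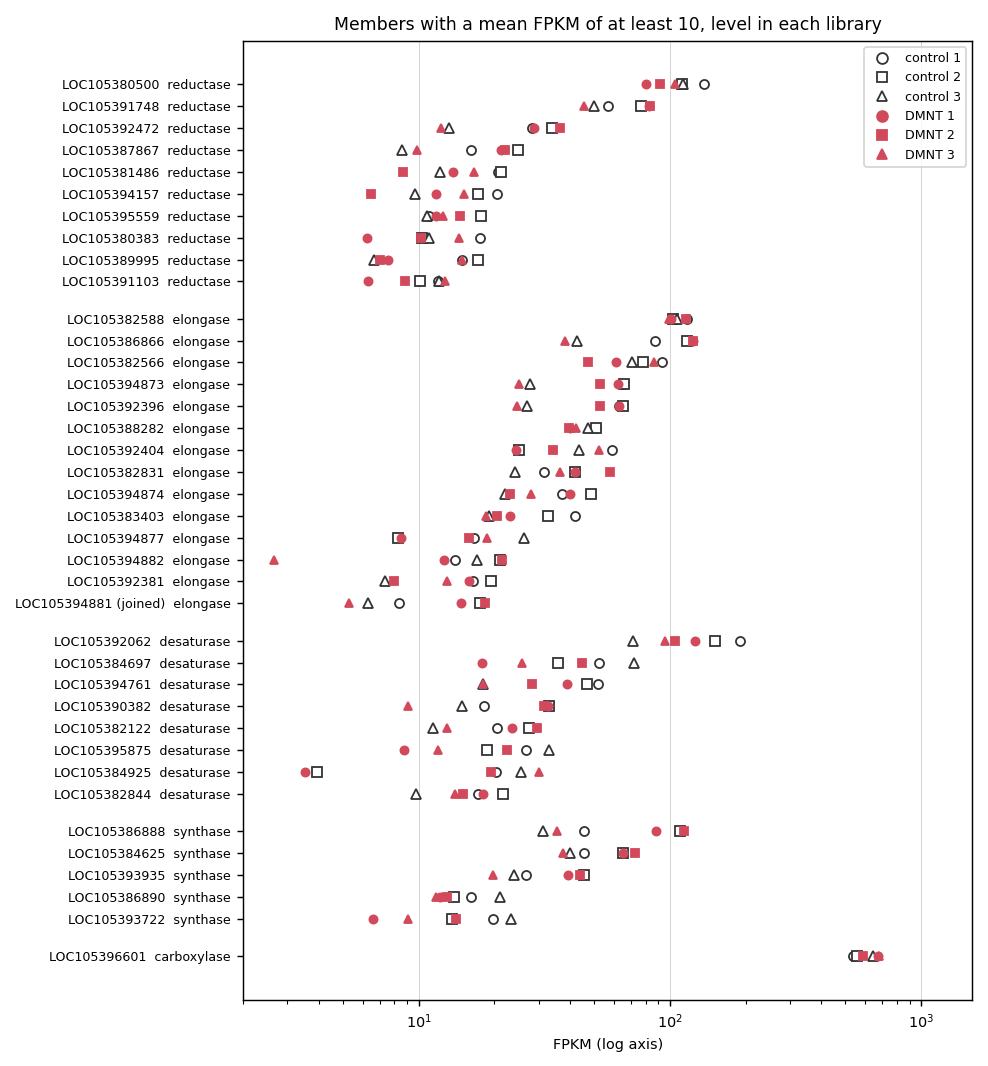
FPKM on a log axis of the 38 members with a mean of at least 10 FPKM, one row per member, in the 3 control (open) and 3 DMNT (filled) libraries, the marker shape giving the replicate. Triangles of control 3 and DMNT 3 lie together at the low end in members such as LOC105392472, LOC105386866 and LOC105386888, and LOC105396601 lies apart at 537 to 682 FPKM.

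Enzymes that work with these classes were read from lists of 61 rows, of which 58 were tested. None was called by edgeR's quasi-likelihood test, and LOC105389960 was called lower by DESeq2 and by limma on log2(FPKM + 0.01). In edgeR's test 4 had an unadjusted p under 0.05 with lower values and none with higher values, where 1.68% and 1.75% of all genes did, and 42 fold changes lay below 0 with a median of -0.14. In FPKM, all DMNT libraries lay below all controls in 11 of them and above in 1, against 5.29% and 3.12% of all genes. In TMM-scaled CPM the shares of all genes were 4.12% and 4.25%, and these enzymes were not counted on that scale. Control 2 had the largest TMM factor, 1.07, and DMNT 2 had 1.002. Genes in which these libraries came close may therefore overlap on that scale, and the 11 hold for FPKM alone. Without control 2, 2 of them were called, and each of 4 other omissions of a library gave 1. Cytochrome P450 4g15 (LOC105391053), whose Drosophila relative turns fatty aldehydes into cuticular hydrocarbons, had 326, 304 and 315 FPKM in the controls and 241, 295 and 227 FPKM after DMNT. Its groups did not overlap in FPKM, with control 2 and DMNT 2 closest, and the log2 fold change was -0.26 ± 0.14. In the synthesis of stored fat, glycerol-3-phosphate acyltransferase 4 (LOC105389960) had 0.79, 0.83 and 1.39 FPKM against 0.36, 0.68 and 0.43 FPKM. Its log2 fold change was -0.99 ± 0.38, just inside the threshold of 1. The mitochondrial acyltransferase 1 (LOC105387786) of the same pathway was more abundant and had a log2 fold change of -0.05 ± 0.13.

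None of the carriers, shared enzymes and regulators listed was called by edgeR with all libraries. The gene of highest FPKM in each list had a log2 fold change between -0.14 and 0.07, while others differed more. The very-long-chain enoyl-CoA reductase LOC105385206, the last enzyme of each elongation round, had a log2 fold change of -0.06 ± 0.20 at a mean of 69.9 FPKM. The cytochrome b5-like gene LOC105387650, from a family that passes electrons to desaturases, had -0.14 ± 0.17 at 42.0 FPKM. Of the 11 genes of electron transfer to desaturases and P450 enzymes, 9 had a fold change below 0, with a median of -0.22. Both NADPH-cytochrome P450 reductases had groups without overlap in FPKM, with -0.37 ± 0.20 for LOC105384834 and -0.30 ± 0.20 for LOC105391609. In LOC105391609, control 2 and DMNT 2 were nearly equal, at 23.76 and 23.73 FPKM. The acyl-CoA-binding protein LOC105397186, a carrier of acyl-CoA, had 0.07 ± 0.18 at 832 FPKM. The fatty acid-binding proteins LOC105390055 and LOC105382919 had lower FPKM in every DMNT library than in every control, with -0.37 ± 0.17 and -0.39 ± 0.18. A trans-2-enoyl-CoA reductase described as mitochondrial, LOC105380160, had higher FPKM in every DMNT library, with 0.57 ± 0.35. The carbohydrate-responsive element-binding protein LOC105380573, known in mammals as an activator of fatty acid synthesis genes, had -0.07 ± 0.16 at 7.37 FPKM. Sterol regulatory element-binding protein 1 (LOC105392526), a regulator of the same genes, had 0.29 ± 0.26 at 3.18 FPKM.

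Over all 6 libraries, elongases had the largest summed level of the 3 classes compared, and the number of genes that carried it differed. Elongases summed to 748, 740.0 and 533 FPKM in the controls and 672, 678 and 528 FPKM after DMNT. Desaturases summed to 422, 361 and 279 FPKM against 291, 318 and 236 FPKM. Reductases summed to 371, 383 and 281 FPKM against 307, 334 and 286 FPKM. In all 3 classes the groups overlapped, and control 3 was the lowest control and DMNT 3 the lowest DMNT library. The 3 genes with the highest FPKM held 41.4% of the elongase sum, 62.3% of the desaturase sum and 60.5% of the reductase sum. Synthases had 181 ± 58.5 FPKM in the controls and 195 ± 73.7 FPKM after DMNT (SD, n = 3).

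Most of the abundant members varied widely between libraries of the same group. Among genes with a mean of at least 10 FPKM, the median SD of log2(FPKM + 0.1) within a group was 0.56 for the 38 members and 0.22 for all 5258 genes. It was 0.61 for 14 elongases, 0.61 for 8 desaturases, 0.49 for 10 reductases and 0.48 for 5 synthases. The single carboxylase row of that level, LOC105396601, had 0.13, below the median of all genes. An SD of at least 0.5 was found in 57.9% of the members and 10.4% of all genes. Leaving out single libraries kept the medians between 0.50 and 0.59 for the members and between 0.20 and 0.23 for all genes. These values are a description, and the differences between classes were not tested.

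The variation had a shared order of libraries. In 27 of the 73 members, or 37.0%, control 3 and DMNT 3 were the 2 libraries with the lowest FPKM, while this held for 16.7% of all genes. They were 8 reductases, 8 elongases, 8 desaturases and 3 synthases. Among them are pairs with a near constant ratio, such as the elongases LOC105392396 and LOC105394873, so the 27 are not separate observations. The ranking used FPKM without TMM scaling, for members and for all genes alike. Control 3 and DMNT 3 had the smallest TMM factors, 0.9624 and 0.9634, and no ranking was made in TMM-scaled CPM. DMNT 1 and DMNT 3 were the lowest libraries in 17.8% of the members and 9.77% of all genes, and DMNT 1 and DMNT 2 in 13.7% and 7.6%. Control 2 and DMNT 1 were lowest in 8 members, or 11.0%, against 7.27% of all genes, among them 5 elongases and the desaturase LOC105384925. The lowest library was DMNT 3 in 32.9% of the members and 21.1% of all genes, DMNT 1 in 24.7% and 23.2%, and control 1 in 2.74% and 9.87%.

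Markers of tissues that hold these enzymes also differed between libraries of a group. The 106 rows of cuticle proteins, markers of epidermis, had 93 tested genes, 2 called lower and none higher, against 0.503% and 0.367% of all genes, and 2 rows were at 0 throughout. Their sum ranged from 14203 to 20255 FPKM in the controls and from 9355 to 17461 FPKM after DMNT, with DMNT 1 lowest and control 3 highest of all libraries. The fat body list of 16 rows had 11 tested, none called lower and 1 called higher (LOC105388111), to be read against the same shares, and 1 row at 0 throughout. As 5 of its rows were fibrohexamerin-like, which are silk proteins, the other 11 rows were also summed, and gave 1439, 3403 and 1991 FPKM in the controls and 2609, 4401 and 551 FPKM after DMNT. Control 2 and DMNT 2 were the highest of their groups, and control 1 and DMNT 3 the lowest. In the synthase LOC105386888, control 2 and DMNT 2 were also highest, but control 3 was the lowest control. Apolipophorins (LOC105380513), the fat body lipid carrier, had 25.6, 78.2 and 28.6 FPKM against 59.9, 86.5 and 24.4 FPKM. Among genes with a mean of at least 10 FPKM, the within-group SD had a median of 0.64 for cuticle proteins, 0.90 for the fat body list, 0.20 for midgut proteases and peritrophins and 0.15 for muscle proteins. The sums of the muscle list were 24396 to 32429 FPKM in the controls and 30334 to 31262 FPKM after DMNT, and those of the midgut list 24648 to 27603 and 26600 to 28312 FPKM. The part of tissue content in the values of the members was not tested.

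**Figure D4:**
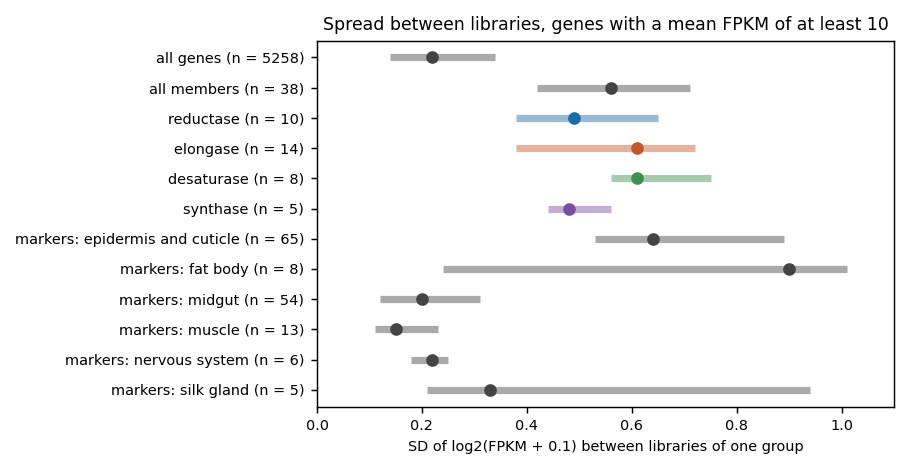
SD of log2(FPKM + 0.1) between libraries of 1 group for genes with a mean of at least 10 FPKM, with the median as a point and the quartiles as a bar. All genes have a median of 0.22, the members 0.56, cuticle markers 0.64 and muscle markers 0.15.

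Many members were neighbours. By the running number of the assembled loci, with at most 3 between one member and the next, 36 members stood in 10 runs. The longest held 8 elongases, from LOC105394873 at a mean of 49.8 FPKM to LOC105394884 at 2.02 FPKM. A run of 3 elongases elsewhere held LOC105392381, LOC105392396 and LOC105392404, with means of 13.3, 49.1 and 39.6 FPKM. In a newer annotation of the species, matched by symbol for 57 members, this run and part of the run of 8 stood beside each other with 1 gene between. In a run of 5 fatty acid synthases, adjacent also in the newer annotation, LOC105386891, LOC105386890, LOC105386889, LOC105386888 and LOC105386886 had means of 0.162, 14.6, 0.03, 70.7 and 0.273 FPKM. Genes side by side thus differed from barely detected to abundant. In the run of 4 reductases with LOC105395169, the next gene LOC105395168 had 2.72, 8.58 and 2.00 FPKM in the controls and 6.52, 11.5 and 2.21 FPKM after DMNT. Its log2 fold change of 0.68 ± 0.64 had the opposite sign to that of LOC105395169, and it was called higher in 1 of 17 alternative fits, without control 2 (1.52).

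**Figure D5:**
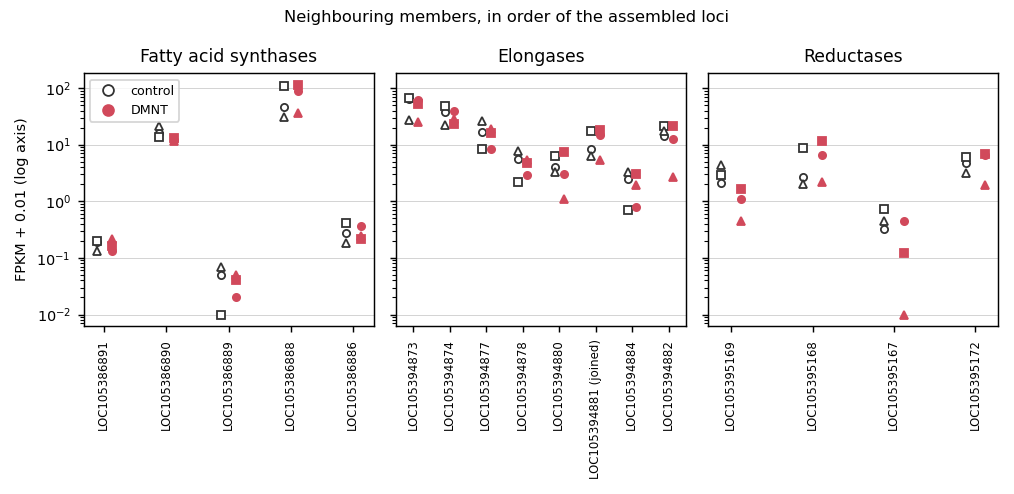
FPKM + 0.01 on a log axis along runs of 5 fatty acid synthases, 8 elongases and 4 reductases, in the order of the assembled loci, for control (open) and DMNT (filled) libraries, with the marker shape giving the replicate. Neighbouring synthases range from a mean of 0.03 to 70.7 FPKM.

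Some members kept a near constant ratio to another member of their class. Among 485 pairs within classes, of genes with a mean of at least 2 FPKM, the SD of the log2 ratio over the 6 libraries had a median of 0.76 and was under 0.2 in 12 pairs. The elongases LOC105392396 and LOC105394873, both of 1.03 kb, differed least, with a ratio of 0.964 to 1.0. LOC105392396 had 62.7, 65.2 and 27.0 FPKM in the controls and 62.5, 52.8 and 24.5 FPKM after DMNT, and LOC105394873 had 65.1, 65.9 and 27.7 against 62.4, 52.9 and 24.99 FPKM. LOC105394877 and LOC105394878 had a ratio of 2.98 to 3.86. In these pairs only LOC105392396 and LOC105394878 were matched in the newer annotation. The counting is not stated to keep near copies apart or to use strand, so the level of each gene in such a pair is uncertain. A near constant ratio was also found between genes on different chromosomes of the newer annotation. LOC105394157 and LOC105381486, on chromosomes 10 and 30, had a ratio of 0.745 to 0.987. Whether any pair shares reads was not tested.

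The 16 members that were not tested had a mean under 0.5 FPKM. They were 8 reductases, 2 elongases, 3 desaturases and 3 synthases, and the highest single value was 1.36 FPKM, in the reductase LOC105386367 in DMNT 1. The reductase LOC105390248 and the desaturase LOC105382118 had no read in any library. Another 7 rows carried the database entry of one of these enzymes under a different description. Of these, LOC105395531 was called lower with a log2 fold change of -1.53 ± 0.52, and LOC105395341, with a carboxylase entry, had 38.0, 30.6 and 55.3 FPKM against 24.4, 32.1 and 32.7 FPKM (log2 fold change -0.44 ± 0.26).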

How the data were processed

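Libraries were grouped by their titles. By the methods and the submitters' processing notes, the authors trimmed reads (cutadapt), mapped them to an NCBI assembly of P. xylostella (HISAT) and built gene models and levels from them (StringTie). They tested with edgeR, and no tool version is given in the sources used here. Per the file headers and values, the deposited counts are whole numbers without normalization. The deposited FPKM are the authors' values per exon length and mapped fragments, and gene lengths were derived as count over FPKM. All value columns of both kinds were used.

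The members and the gene lists were chosen with earlier results of these data known. A mean FPKM of 0.5 or more was required for the test, which left 17709 of 21946 genes for edgeR 4.0.16 in R 4.3.3 (TMM scaling, glmQLFit and glmQLFTest, no covariate), and p-values were adjusted by Benjamini-Hochberg over all of them. The SE was obtained by dividing the absolute log2 fold change by the root of the F statistic. The test was also run on simulated counts, drawn independently for each gene and library. They lacked the shared order of libraries seen here, and their outcome is not used. No library was taken as a copy of another, as each of the 15 pairs had a mean chi-square per gene of 51.7 or more. The smallest value was that of control 3 and DMNT 3. An exact permutation test of 3 against 3 cannot go below 0.1 and was not used.

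The genes named by rule were those past the thresholds, every carboxylase and synthase row with a mean FPKM of at least 1, and in each other class the 4 with the highest mean FPKM, the 3 with the smallest p and the 2 with the largest SD of log2(FPKM + 0.1). The gene of highest mean FPKM in each list of related enzymes was added. Other genes, among them ATP-citrate synthase, the tricarboxylate transport protein, LOC105389960, LOC105395168, LOC105395341, the related enzymes without overlap and members of pairs and runs, were chosen after their values were seen. Alternatives were median-ratio and upper-quartile scaling, 2 other filters, robust spread, DESeq2 1.42.0, edgeR's exact test, limma 3.58.1 on log2 FPKM with pseudocounts of 0.1, 1 and 0.01, the replicate number as a block, adjusted p-values, joined rows left out and each library left out. The newer NCBI annotation was used for names and neighbours alone. No sequence was used.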

Additional observations from a re-analysis of the deposited data

How the results depend on the processing

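Past the thresholds of the study, all genes gave 154 calls (89 lower, 65 higher). There were 240 without a filter, 84 with a mean of at least 2 FPKM, 84 by limma on log2(FPKM + 1), 2 at an adjusted p under 0.05 and 162 to 271 with 1 library left out. The adjusted p of edgeR's exact test passed in 17 genes and that of DESeq2 in 23. The share of calls that were higher, 42.2%, was 26.2% by limma with a pseudocount of 1, and the cause was not tested. Members called lower, 1 in the test reported, were 2 by DESeq2, by the exact test and by limma with pseudocounts of 0.1 and 0.01, 0 at an adjusted p under 0.05, and 1 to 6 with 1 library left out, where members called higher were 0 to 2. Members without overlap were 5 lower and 1 higher in TMM-scaled CPM, an alternative chosen after seeing the data. Related enzymes had 1 call by DESeq2 and by limma with 0.01, and 0 to 2 with 1 library left out. The median log2 fold change of reductases, -0.25, was 0.01 without a filter and -0.34 to -0.03 with 1 library left out, that of elongases -0.23 to 0.00 and that of desaturases -0.25 to 0.03.

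Same-numbered libraries correlated in their deviations by 0.071, 0.056 and 0.098. They were not treated as pairs in the test reported, although each correlated best with its own number. With the replicate block, all genes gave 178 calls, members called lower were 2, and the median of the reductases was -0.28. By edgeR's quasi-likelihood test, 897 of all genes had an unadjusted p under 0.05 with the block and 608 without it. At an adjusted p under 0.05 these were 0 and 2.

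Fold changes near 0 changed sign when 1 library was left out. LOC105382588 ranged from -0.08 to 0.05, and was 0.02 by upper-quartile scaling and 0.00 with the replicate block. The ranges of log2 fold change were -0.54 to 0.61 for LOC105384925, -0.02 to 0.64 for LOC105386866, -0.12 to 0.53 for LOC105387867, -0.06 to 0.60 for LOC105390382, -0.57 to 0.03 for LOC105392062, -0.22 to 0.43 for LOC105392472, -0.04 to 0.44 for LOC105393935, -0.40 to 0.18 for LOC105394873 and -1.12 to 0.01 for LOC105394882. Among related enzymes they were -0.19 to 0.04 for LOC105380573, -0.22 to 0.11 for LOC105385206, -0.24 to 0.01 for LOC105387650, -0.12 to 0.02 for LOC105387786 and -0.08 to 0.20 for LOC105397186. With 3 libraries a group, differences of the size of the within-group spread could not be told from it.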
